A study of Mus musculus with 8 samples.

Results

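Heat shock proteins and the chaperones of the cytosol were followed in mouse abdominal skin treated with shikonin, as a set of 36 genes listed by family. The set holds the HSP70, HSP110, HSP90 and small heat shock protein families, their J-domain, BAG and HSP90 co-chaperones, the ubiquitin ligase Stub1, the mitochondrial chaperonin pair Hspd1 and Hspe1, the heat shock factors Hsf1 and Hsf2, and 6 subunits of the cytosolic chaperonin TRiC. A member was taken by its gene symbol in the probe annotation, with older and newer synonyms counted, and needed a value on all 8 arrays. Of the 36 genes, 29 were measured under their own symbol, Hspa1a, Dnaja1 and Dnajb4 were blank on all 8 arrays, and Hsph1, Hspb1, Hspd1 and Hspe1 had no probe under their symbol. One further probe is annotated as Hsp110, an older name that RefSeq lists for both Hsph1 and Hspa4. It was kept as Hsp110, which gives 30 genes and 38 probes, among 9987 named genes and 13853 probes measured in all.

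Chaperones hold newly made or damaged proteins in a state from which they can fold. HSP70 proteins bind short stretches of unfolded chains in a cycle that J-domain proteins start and that HSP110 and BAG proteins reset, HSP90 and its co-chaperones finish the folding of kinases, receptors and other clients, and TRiC encloses actin and tubulin. When unfolded proteins accumulate in a heated or poisoned cell, the transcription factor Hsf1 is set free from chaperones, forms trimers and binds heat shock elements, arrays of inverted units of GAA in front of chaperone genes.

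The 4 groups of skin RNA compared were shikonin 4 h, acetone 4 h, shikonin 24 h and acetone 24 h, with 2 arrays in each. Shikonin, a naphthoquinone of Lithospermum roots, was put on the abdominal skin of female C57BL/6JNarl mice as 100 μL of acetone with 10 μg/μL shikonin, and the acetone groups received the solvent alone, so all 4 groups carry acetone. No untreated skin was among the arrays, and the 4 h and 24 h groups are separate skin samples. The paper speaks of duplicate samples on separate chips and of 2 independent experiments, and does not give the animals behind each array. Nothing in the labels says that both arrays of a group come from different animals, so that the p-values measure the spread between arrays only. Each array gave 1 intensity per probe, on a linear scale that the authors had already brought to a common level. The medians lay between 1128.8 and 1130.4, and the arrays of a group correlated with r of 0.986 to 0.992 over probes. The RNA came from whole skin, in which fewer cells of a type and less RNA per cell cannot be told apart.

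The promoters of 4 members are shown because they span what the set holds, from a dense array of heat shock elements to none. Among the 22 measured members with a promoter at hand, Chordc1 is the only one that carries an element of 3 units. It changed by the test at 4 h. Hspa1b and Bag3, typical targets of Hsf1, carry an element of 2 units, and Hspa2, which had the largest change at 4 h, carries none. The last 3 were chosen after their values had been seen. Each sequence is a RefSeq promoter of build GRCm38.p6 that runs from 250 bases before to 50 bases after the start of the transcript, written 5′ to 3′ on the strand of the gene. Capitals mark the run of 3-unit elements in Chordc1 and the 2-unit element in Hspa1b and Bag3, and positions count from the start, with -1 as the last base before it. Chordc1 lies on the plus strand at chr9:18292017-18292316, Hspa1b on the minus strand at chr17:34959189-34959488, Bag3 on the plus strand at chr7:128523333-128523632 and Hspa2 on the plus strand at chr12:76404120-76404419.
Chordc1: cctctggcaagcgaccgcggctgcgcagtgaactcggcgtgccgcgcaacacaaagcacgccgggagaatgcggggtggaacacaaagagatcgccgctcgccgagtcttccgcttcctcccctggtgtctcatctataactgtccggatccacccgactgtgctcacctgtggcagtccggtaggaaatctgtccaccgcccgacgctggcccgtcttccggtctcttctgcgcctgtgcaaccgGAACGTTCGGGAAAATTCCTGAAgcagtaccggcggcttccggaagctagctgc
Hspa1b: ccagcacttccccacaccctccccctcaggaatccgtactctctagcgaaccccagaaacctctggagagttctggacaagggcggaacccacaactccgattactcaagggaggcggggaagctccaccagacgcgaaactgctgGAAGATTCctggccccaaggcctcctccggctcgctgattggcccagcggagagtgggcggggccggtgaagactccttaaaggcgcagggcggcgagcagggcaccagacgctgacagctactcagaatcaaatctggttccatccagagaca
Bag3: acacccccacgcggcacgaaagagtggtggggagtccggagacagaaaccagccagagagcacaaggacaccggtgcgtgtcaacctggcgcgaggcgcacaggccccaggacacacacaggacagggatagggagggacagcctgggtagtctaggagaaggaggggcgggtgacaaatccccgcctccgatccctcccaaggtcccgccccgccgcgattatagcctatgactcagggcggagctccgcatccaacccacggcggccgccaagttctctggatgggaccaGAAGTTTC
Hspa2: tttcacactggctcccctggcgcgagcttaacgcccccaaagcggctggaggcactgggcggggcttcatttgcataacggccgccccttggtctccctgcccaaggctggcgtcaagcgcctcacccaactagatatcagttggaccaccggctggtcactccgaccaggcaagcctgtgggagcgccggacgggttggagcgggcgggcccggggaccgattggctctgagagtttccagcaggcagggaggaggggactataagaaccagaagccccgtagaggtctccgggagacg
In Chordc1 the capitals run for 23 bases from position -4, across 3 overlapping elements of 3 units. Of the 5 elements of 2 units in this promoter, 1 lies behind the run and is left in lower case. The element of Hspa1b starts at -104 and that of Bag3 at 43, behind the start.

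Over all members, elements were counted as GAANNTTC or TTCNNGAA for 2 units, and as 3 such units in a row for the longer form, on both strands. The forms overlap, since each element of 3 units contains elements of 2. Promoters were found for 29 of the 36 genes. None was found for Hspa8, Hspa9, Hsp90aa1, Hsp90ab1, Cryab, Hsf1 and Cct4, so these were not searched. Hsp110 was not looked up under that name, while Hsph1 and Hspa4 were. An element of 3 units stood in 4 of the 29 (13.8%), namely Chordc1, Hsph1, Hspd1 and Hspe1, against 179 of 27025 genes of the whole table (0.662%). Hspd1 and Hspe1 lie head to head and share the same bases, so their element is counted for both genes. An element of 2 units stood in 15 of the 29 genes (51.7%), against 17.0% of all genes. Of all measured genes with a promoter, 14.0% had an element of 2 units and 0.559% one of 3 units. Among the 22 measured members with a promoter the count was 8 (36.4%) for 2 units and 1 (4.55%) for 3 units. Of the members with a promoter, those with the densest elements are thus mostly ones the array did not measure under their own symbol. CCAAT, searched on both strands, stood in 41.4% of the members and 41.1% of all genes, and TATAAA on the forward strand in 3.45% and 9.77%. These are matches of letters in a window of 300 bases and do not show binding.

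The members answered shikonin in both directions. At 4 h, 10 of 30 (33.3%) were higher in shikonin-treated skin and 4 (13.3%) were lower by limma, at an adjusted p under 0.05 over all probes, where 20.4% of all named genes were higher and 26.5% lower. At 24 h, 11 (36.7%) were higher and 8 (26.7%) lower, where 28.3% of all named genes were higher and 33.7% lower. The median log2 fold change of the members was 0.075 at 4 h and 0.146 at 24 h, against -0.074 and -0.054 over all named genes. Single members ran from -1.23 to 2.01 at 4 h and from -1.11 to 2.12 at 24 h on the log2 scale. The study's own criterion asks for a change of at least 2-fold in 2 independent experiments. Here it was applied to the pairs of arrays with the same number, which had to move alike. It was met at 4 h by 3 members that were higher, Hspa2, Hsp110 and Cct3, and by 1 that was lower, Hsf2, where 6.6% and 5.21% of all named genes met it. At 24 h it was met by 4 that were higher, Hspa8, Hspa4, Hsp90aa1 and Tcp1, of which 3 met it with the replicate numbers crossed and Tcp1 did not, and by 1 that was lower, Hspa4l, where 12.4% and 13.0% of all named genes met it.

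Higher levels at both times were seen for 5 members (Hspa4, Hsp110, Hsp90aa1, Ahsa1 and Cct3), and Hsf2 alone was lower at both. Hspa2 and Dnajb1 were higher at 4 h and lower at 24 h, and Cacybp was lower at 4 h and higher at 24 h. Of the others, 3 were higher at 4 h only (Hspa9, Chordc1 and Cct2), 2 lower at 4 h only (Dnaja2 and Bag1), 5 higher at 24 h only (Hspa1b, Hspa8, Bag3, Stip1 and Tcp1) and 5 lower at 24 h only (Hspa4l, Fkbp4, Stub1, Hsf1 and Cct4). The remaining 6, Hsp90ab1, Hspb8, Cryab, Ptges3, Cct5 and Cct8, passed at neither time. Passing at 1 time only does not show that the effects differ, and the test of that difference was passed by 10 members. It was higher at 24 h than at 4 h in 4 of them and lower in 6, where 21.7% and 22.8% of all named genes passed.

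**Figure D1:**
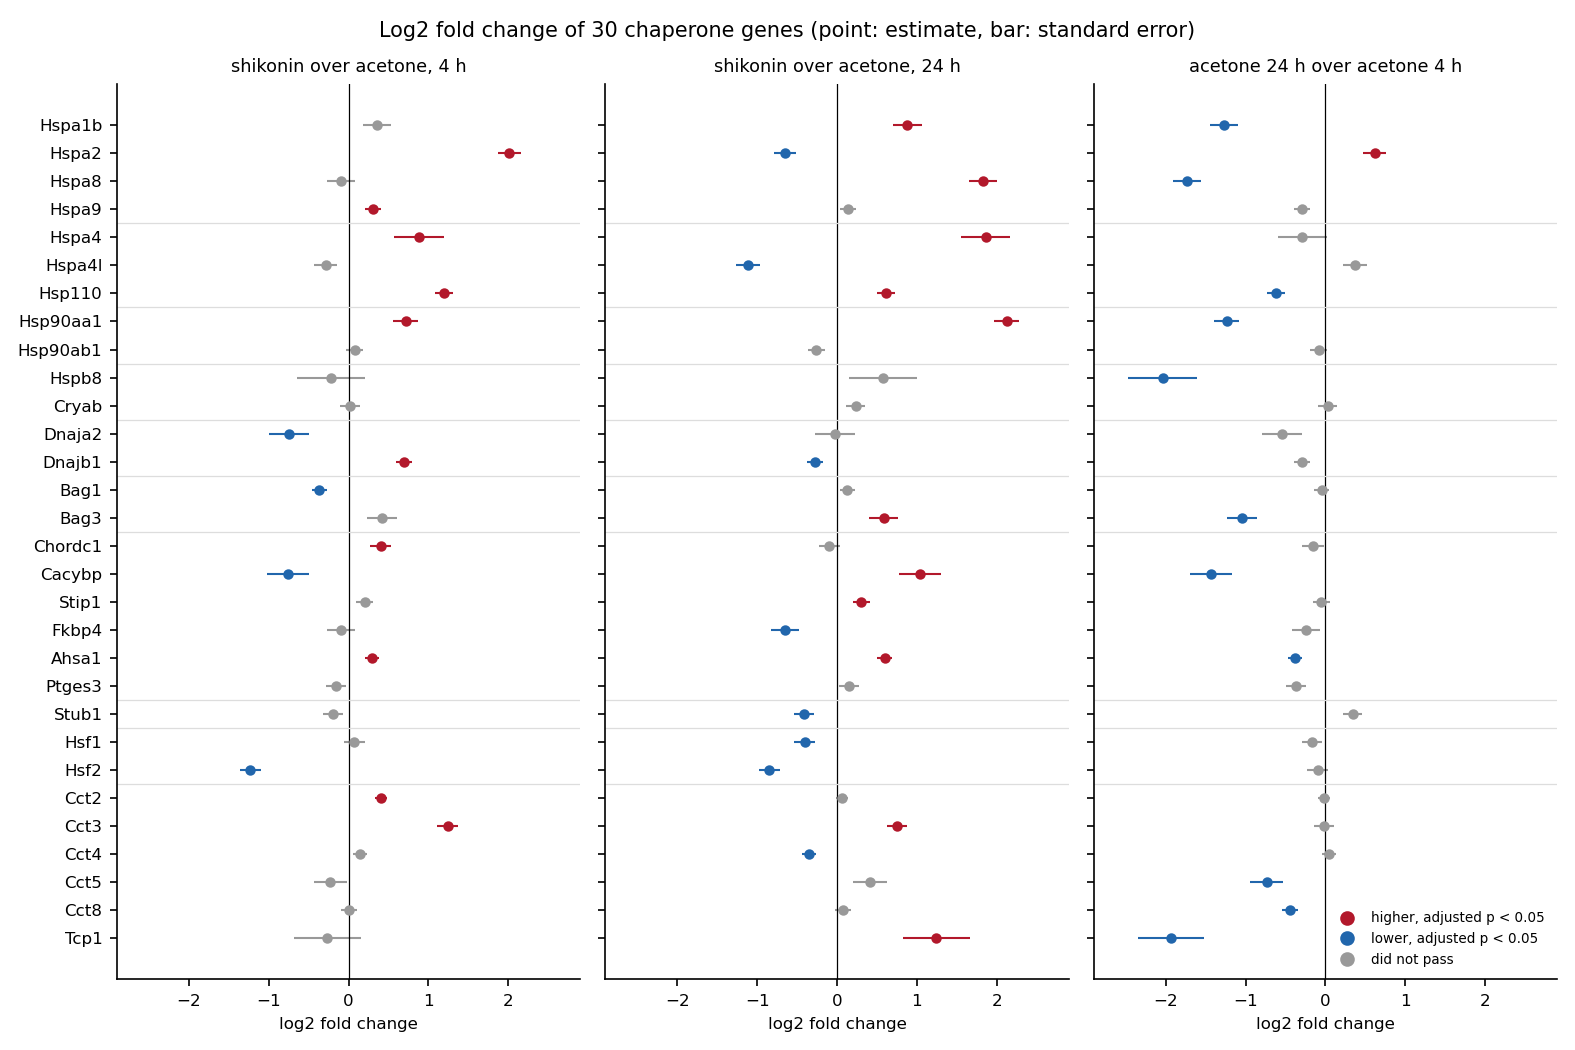
Log2 fold changes (horizontal axes) of the 30 measured members (rows, grouped by family) for shikonin over acetone at 4 h, for the same at 24 h and for acetone 24 h over acetone 4 h, with the limma estimate as a point and its standard error as a bar. Red and blue mark members that passed as higher and lower: 10 and 4 at 4 h, 11 and 8 at 24 h, and 1 and 11 between the acetone groups.

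HSP70 proteins are the central chaperones of the cytosol, and 4 of them were measured. Hspa2, a form best known from male germ cells, read 6947 and 8358 in shikonin 4 h skin and 1825 and 1952 in acetone 4 h skin. After 24 h the readings were 1865 and 1828 in shikonin skin and 3211 and 2617 in acetone skin. The groups did not overlap at either time, and the order was opposite: Hspa2 was 4.04-fold higher at 4 h (log2 2.01 ± 0.14 SE, adjusted p = 6.55e-06 by limma, n = 2 each) and lower at 24 h (log2 -0.65 ± 0.14, adjusted p = 0.00332). The change at 4 h was the largest of any member at that time, and the effects differed by -2.66 ± 0.20 on the log2 scale (adjusted p = 1.27e-05 by limma).

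Hspa8, the constitutive HSP70 of the cytosol, showed the other pattern. It read 7894 and 7679 in shikonin 4 h skin and 10182 and 6767 in acetone 4 h skin, and these groups overlapped. At 24 h it read 8485 and 9251 in shikonin skin, against 2321 and 2671 in acetone skin, and was 3.56-fold higher (log2 1.83 ± 0.18 SE, adjusted p = 1.69e-05 by limma). Across the 4 groups the acetone 24 h arrays stand low, while the other 6 arrays lie between 6767 and 10182. The effect at 24 h exceeded that at 4 h by 1.92 ± 0.25 on the log2 scale (adjusted p = 0.000317).

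Hspa1b, the form that heat induces, was bright in all groups. It read 20296 and 15661 in shikonin 4 h skin and 14199 and 13631 in acetone 4 h skin, and did not pass at 4 h (log2 0.36 ± 0.18, adjusted p = 0.132 by limma). After 24 h the gene read 9373 and 12050 in shikonin skin and 4983 and 6681 in acetone skin, 1.84-fold higher (adjusted p = 0.00211). Both 24 h groups were thus dimmer than both 4 h groups. Hspa1a, its near-identical copy, was blank on the arrays, and the sources used here do not give the sequence of the Hspa1b probe, so RNA of both genes may be in this signal. Hspa9, the HSP70 of mitochondria, was 1.23-fold higher at 4 h (adjusted p = 0.0341) and did not pass at 24 h (log2 0.14).

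**Figure D2:**
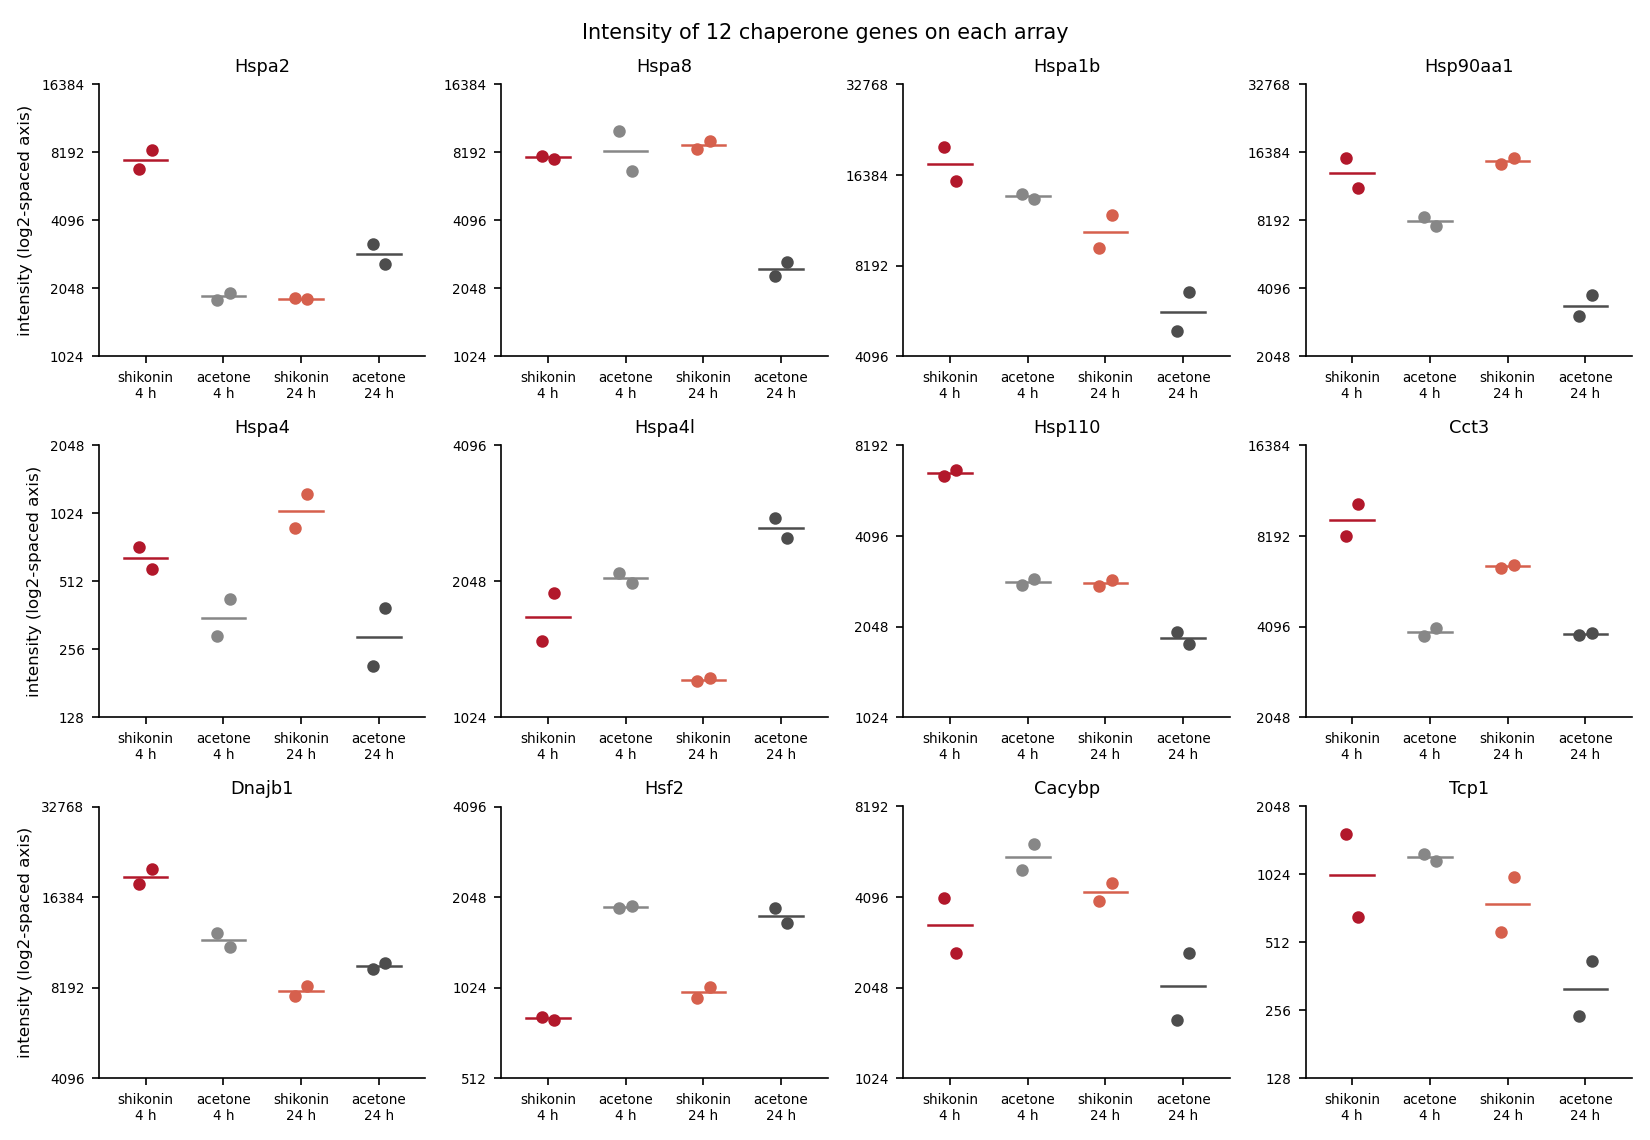
Intensity (vertical axes, spaced by log2) of 12 members on each of the 8 arrays, with 2 points per group and a line at their geometric mean, in the order shikonin 4 h, acetone 4 h, shikonin 24 h, acetone 24 h. Hspa2 stands high in shikonin 4 h alone, Hspa8, Hsp90aa1, Cacybp and Tcp1 are lowest in acetone 24 h, and Hsf2 is lower in both shikonin groups.

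HSP110 proteins are relatives of HSP70 that release its nucleotide. Hspa4 read 728.8 and 583.7 in shikonin 4 h skin and 292 and 429.6 in acetone 4 h skin. At 24 h it read 882.8 and 1255 in shikonin skin, against 215.4 and 389.7 in acetone skin, 3.63-fold higher (log2 1.86 ± 0.31 SE, adjusted p = 0.000627 by limma). It was 1.84-fold higher at 4 h (adjusted p = 0.0424), and the groups were separate at both times although the arrays of a group spread widely at this low level. The probe named Hsp110 read 6468 and 6769 in shikonin 4 h skin and 2821 and 2941 in acetone 4 h skin, and 2796 and 2937 in shikonin 24 h skin and 1963 and 1791 in acetone 24 h skin. It was 2.30-fold higher at 4 h (adjusted p = 3.33e-05 by limma) and 1.53-fold higher at 24 h (adjusted p = 0.00111). Its effect was smaller at 24 h by a log2 difference of -0.59 ± 0.16 (adjusted p = 0.0149). Whether this signal is that of Hsph1 cannot be settled from the name. The third member, Hspa4l, read 1511 and 1927 in shikonin 4 h skin and 2137 and 2027 in acetone 4 h skin. At 24 h it read 1230 and 1253 in shikonin skin and 2830 and 2554 in acetone skin, and this close relative of Hspa4 was 2.17-fold lower there (log2 -1.11 ± 0.15, adjusted p = 0.000142), opposite to Hspa4.

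HSP90 has 2 forms in the cytosol, the inducible Hsp90aa1 and the constitutive Hsp90ab1. Hsp90aa1 read 15455 and 11449 in shikonin 4 h skin and 8519 and 7722 in acetone 4 h skin. Hsp90aa1 at 24 h read 14587 and 15406 in shikonin skin, against 3098 and 3816 in acetone skin. It was 1.64-fold higher at 4 h (log2 0.71 ± 0.16 SE, adjusted p = 0.00485 by limma) and 4.36-fold higher at 24 h (log2 2.12 ± 0.16, adjusted p = 2.72e-06), the largest change of any member at 24 h. The 2 shikonin groups were at like levels and the acetone 24 h arrays stood low, and the effects differed by 1.41 ± 0.22 (adjusted p = 0.000933). A dimmer second probe of Hsp90aa1 read 5484 and 3304 in shikonin 4 h skin and 5291 and 3655 in acetone 4 h skin. Its readings at 24 h were 4468 and 5510 in shikonin skin and 552.5 and 728.7 in acetone skin. The probes agree at 24 h, where the second gave 7.82-fold, and differ at 4 h, where the second gave a log2 change of -0.05 and did not pass.

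The 3 probes of Hsp90ab1 did not give 1 answer. The brightest, which stands for the gene in the counts, read 42533 and 36390 in shikonin 4 h skin and 37599 and 37020 in acetone 4 h skin, and passed at neither time (log2 0.08 at 4 h and -0.26 at 24 h). The other 2 read 24588 and 28089, and 24057 and 26065, in shikonin 4 h skin, against 12986 and 12571, and 11668 and 11329, in acetone 4 h skin. Both were higher at 4 h, by 2.06-fold and 2.18-fold, with adjusted p = 2.16e-05 and 1.23e-05 by limma, and both were higher at 24 h, by 1.35-fold each. With the mean of the 3 probes in place of the brightest, Hsp90ab1 had a log2 change of 0.75 at 4 h and passed (adjusted p = 0.000109). Which probes bind the transcript alone was not tested, since the sources used here hold no probe sequences.

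**Figure D3:**
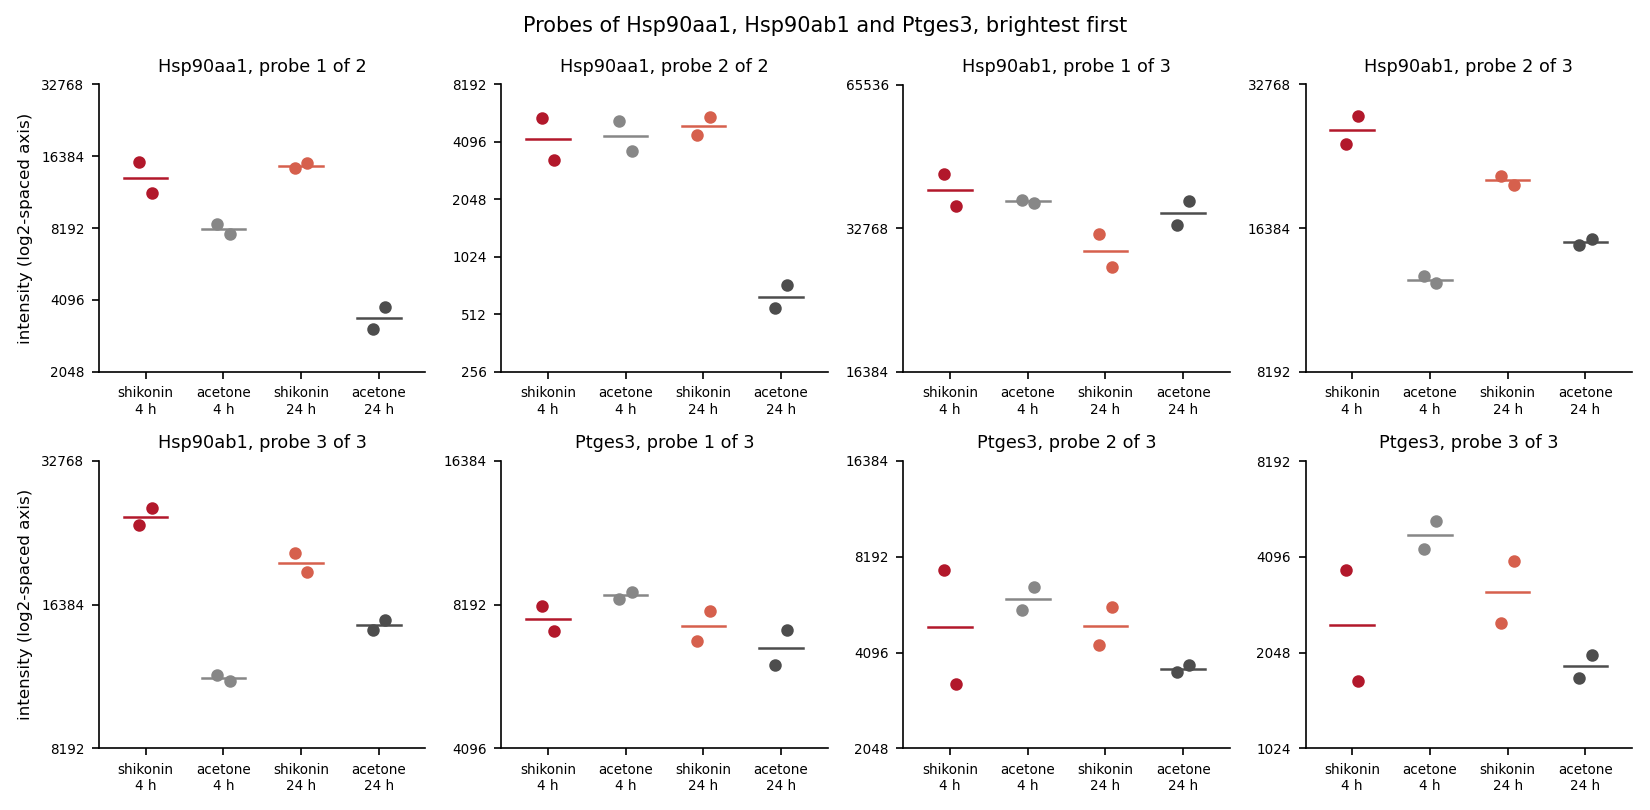
Intensity (vertical axes, spaced by log2) of the 2 probes of Hsp90aa1, the 3 of Hsp90ab1 and the 3 of Ptges3 on each array, with 2 points per group and a line at their geometric mean. Shikonin 4 h lies above acetone 4 h on probes 2 and 3 of Hsp90ab1 and overlaps it on probe 1.

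HSP90 co-chaperones load clients and time the cycle of the ATPase. Among the 6 measured, 2 passed as higher and 1 as lower at 4 h, against 3 and 1 at 24 h, where 20.4% of all named genes passed as higher and 26.5% as lower at 4 h, and 28.3% and 33.7% at 24 h. Ahsa1, which speeds up the ATPase of HSP90, was 1.22-fold higher at 4 h (adjusted p = 0.0263 by limma) and 1.51-fold higher at 24 h (adjusted p = 0.000364). Stip1, which hands clients over from HSP70, was 1.23-fold higher at 24 h (adjusted p = 0.0342), and Chordc1 was 1.32-fold higher at 4 h (adjusted p = 0.0355). Cacybp, a partner of the Siah1 ubiquitin ligase, had the widest range of the class. It read 4069 and 2679 in shikonin 4 h skin, against 5046 and 6169 in acetone 4 h skin. After 24 h Cacybp read 3970 and 4556 in shikonin skin, against 1603 and 2675 in acetone skin. It was thus lower at 4 h (log2 -0.76 ± 0.26, adjusted p = 0.0391) and higher at 24 h (log2 1.04 ± 0.26, adjusted p = 0.00677), and the effects differed by 1.80 ± 0.37 (adjusted p = 0.00408). Fkbp4, an immunophilin of steroid receptor complexes, was 1.57-fold lower at 24 h on its brighter probe (adjusted p = 0.0101), and its dimmer probe was lower at both times. Ptges3, the co-chaperone p23, passed at neither time on its brightest probe, while the dimmest of its 3 probes was lower at 4 h (log2 -0.94 ± 0.34, adjusted p = 0.0484).

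Among the J-domain proteins, which bring clients to HSP70, Dnajb1 is the inducible form. It read 18081 and 20333 in shikonin 4 h skin and 12489 and 11201 in acetone 4 h skin, and 7690 and 8284 in shikonin 24 h skin and 9422 and 9906 in acetone 24 h skin. It was 1.62-fold higher at 4 h (log2 0.70 ± 0.10, adjusted p = 0.000541 by limma) and 1.21-fold lower at 24 h (log2 -0.28 ± 0.10, adjusted p = 0.0416), and the effects differed by -0.97 ± 0.15 (adjusted p = 0.00073). Dnaja2 was lower at 4 h on its brighter probe (log2 -0.75 ± 0.25, adjusted p = 0.0356) and lower at 24 h on the other (log2 -0.88 ± 0.14, adjusted p = 0.000399), so its timing depends on the probe.

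BAG proteins release clients from HSP70, and Bag3 is a partner of the small heat shock protein Hspb8 in autophagy. Bag3 read 7332 and 5394 in shikonin 4 h skin and 3994 and 5514 in acetone 4 h skin, which overlapped, and was higher at 24 h (log2 0.58 ± 0.19, adjusted p = 0.0224 by limma). Bag1 was 1.29-fold lower at 4 h (adjusted p = 0.0128). Neither small heat shock protein passed. Hspb8 read 2533 and 889 in shikonin 4 h skin, the widest gap between the arrays of a group for any member, and Cryab, a lens and muscle chaperone, differed by log2 0.02 at 4 h and 0.23 at 24 h. Stub1, the ubiquitin ligase that tags clients of HSP70 and HSP90, was 1.33-fold lower at 24 h (adjusted p = 0.0149).

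Neither heat shock factor passed as higher at either time. Hsf2, whose protein pairs with Hsf1 on some targets, read 819.5 and 798.9 in shikonin 4 h skin and 1888 and 1913 in acetone 4 h skin, and 947.7 and 1029 in shikonin 24 h skin and 1888 and 1676 in acetone 24 h skin. It was 2.35-fold lower at 4 h (log2 -1.23 ± 0.13 SE, adjusted p = 8.38e-05 by limma) and 1.80-fold lower at 24 h (adjusted p = 0.000429), and the acetone groups differed by log2 -0.10 (adjusted p = 0.621). Hsf1, the factor that drives the heat shock response, differed by log2 0.07 at 4 h and was 1.32-fold lower at 24 h (log2 -0.41 ± 0.13, adjusted p = 0.0205). These are transcript levels, and the activation of Hsf1 takes place on the protein.

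TRiC is a double ring of different subunits, of which 6 are members here. At 4 h 2 of them passed as higher and 0 as lower, and at 24 h 2 as higher and 1 as lower. The shares of higher members, 33.3% at both times, stand beside 20.4% of all named genes at 4 h and 28.3% at 24 h. Cct3 read 8214 and 10437 in shikonin 4 h skin and 3805 and 4041 in acetone 4 h skin, and 6412 and 6592 in shikonin 24 h skin and 3854 and 3892 in acetone 24 h skin. It was 2.36-fold higher at 4 h (log2 1.24 ± 0.13 SE, adjusted p = 5.84e-05 by limma) and 1.68-fold higher at 24 h (adjusted p = 0.000693), and its acetone groups differed by log2 -0.02 (adjusted p = 0.946). Cct2 was 1.32-fold higher at 4 h (adjusted p = 0.00209), and Cct4 was 1.28-fold lower at 24 h on its brighter probe (adjusted p = 0.00675), while its dim second probe was higher at 4 h (adjusted p = 0.0354). Cct5 and Cct8 passed at neither time. Tcp1 read 1554 and 661.9 in shikonin 4 h skin and 1267 and 1174 in acetone 4 h skin, and 571.4 and 997.2 in shikonin 24 h skin and 241.2 and 421.7 in acetone 24 h skin. It was 2.37-fold higher at 24 h (log2 1.24 ± 0.42, adjusted p = 0.0272), a call that was lost without acetone 24 h replicate 1 or shikonin 24 h replicate 2.

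Acetone controls of both times were then compared, since the 24 h effects rest on the acetone 24 h arrays. Relative to acetone 4 h skin, acetone 24 h skin was lower in 11 of 30 members (36.7%) and higher in 1 (3.33%) by limma, where 14.5% of all named genes were lower and 15.8% higher. The median log2 change of the members was -0.29, against 0.055 over all named genes. Hspb8 was 4.11-fold lower (adjusted p = 0.00873), Tcp1 3.83-fold (adjusted p = 0.00961), Hspa8 3.33-fold (adjusted p = 0.000304), Cacybp 2.69-fold (adjusted p = 0.00481), Hspa1b 2.41-fold (adjusted p = 0.00163), Hsp90aa1 2.36-fold (adjusted p = 0.000996) and Bag3 2.06-fold (adjusted p = 0.00455). Hsp110, Ahsa1, Cct5 and Cct8 were lower by less than the 2-fold criterion, and Hspa2 was the member that was higher (log2 0.62 ± 0.14, adjusted p = 0.0127).

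Of the 11 members higher in shikonin at 24 h, 8 were among those lower in acetone 24 h skin, namely Hspa1b, Hspa8, Hsp110, Hsp90aa1, Bag3, Cacybp, Ahsa1 and Tcp1. This count follows in part from the shared acetone 24 h arrays, which lie under both comparisons. When shikonin 24 h skin was set against acetone 4 h skin, a comparison chosen after the data had been seen, 3 of the 11 still passed as higher: Hspa4 (log2 1.57, adjusted p = 0.002 by limma), Hsp90aa1 (log2 0.89, adjusted p = 0.00105) and Cct3 (log2 0.73, adjusted p = 0.000943). For Hsp90aa1 this holds for the brighter probe, while the second had a log2 change of 0.17 and did not pass (adjusted p = 0.594). The other 8 did not, and 5 of these changed sign, with log2 values of -0.69 for Tcp1, -0.46 for Bag3, -0.39 for Cacybp, -0.39 for Hspa1b and -0.01 for Hsp110. Hspa8 kept its sign at 0.09, Ahsa1 at 0.21 and Stip1 at 0.25. How many of all named genes lose their call under this change of control was not counted. Whether the members differ in this from other genes was thus not tested. At 4 h, where the acetone arrays of the same time stand higher, acetone 24 h as the control gave Hspa8 a log2 change of 1.65 and Hspa1b one of 1.63, in place of -0.09 and 0.36. Acetone alone has no untreated level here, so that it cannot be said which acetone group lies nearer to untouched skin.

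**Figure D4:**
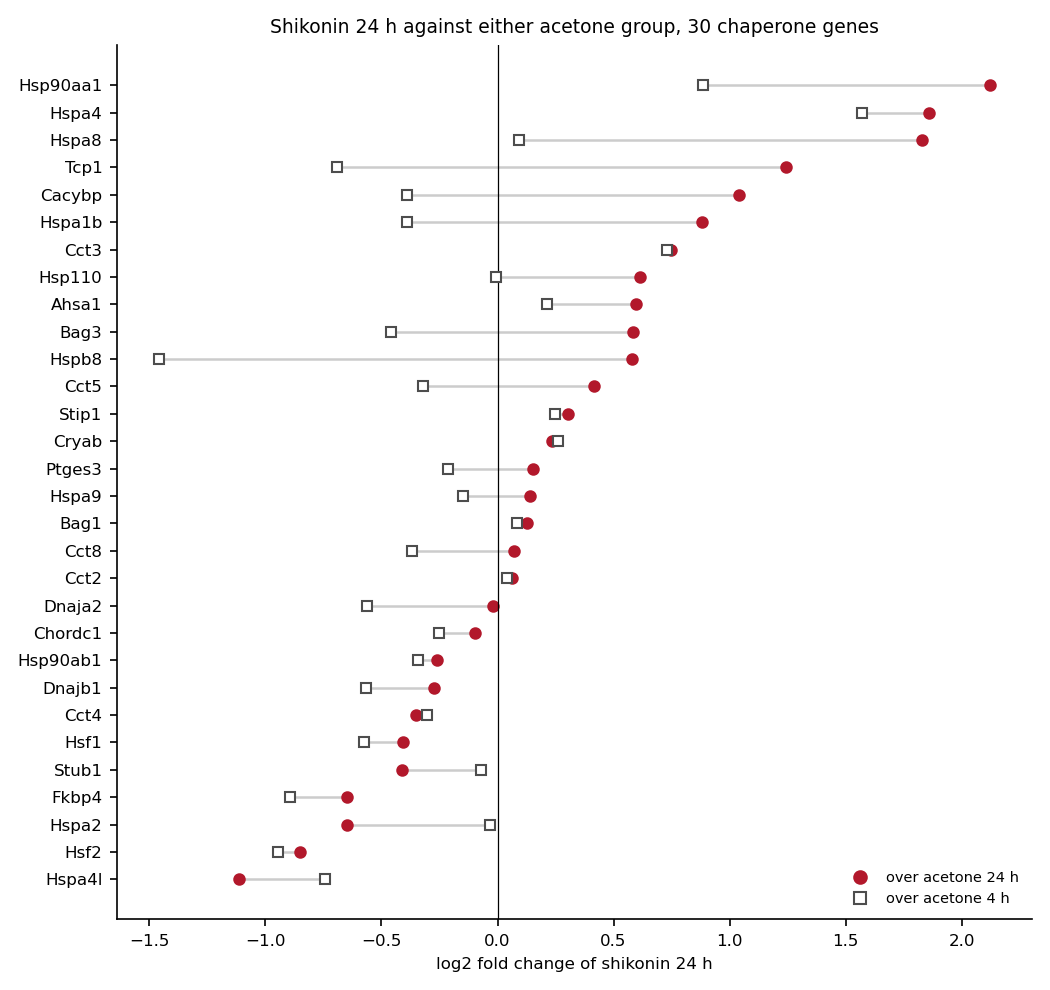
Log2 fold change (horizontal axis) of shikonin 24 h skin over acetone 24 h skin (red circles) and over acetone 4 h skin (open squares) for the 30 members (rows, brightest probe of each), joined by a line per gene. Hsp90aa1, Hspa4 and Cct3 lie to the right of 0 with either control, while Hspa8 falls to 0.09 and Tcp1, Cacybp, Hspa1b and Bag3 lie to the left of 0 with acetone 4 h.

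The fit was repeated without each of the 8 arrays in turn. At 4 h, 6 of the 10 members that were higher still passed whichever of the 8 arrays was left out (Hspa2, Hsp110, Hsp90aa1, Dnajb1, Cct2 and Cct3), as did 1 of the 4 that were lower (Hsf2). At 24 h, 7 of the 11 that were higher did so (Hspa1b, Hspa8, Hspa4, Hsp110, Hsp90aa1, Ahsa1 and Cct3), and 4 of the 8 that were lower (Hspa2, Hspa4l, Hsf2 and Cct4). Tcp1 at 24 h lost its call without acetone 24 h replicate 1 or without shikonin 24 h replicate 2, with an adjusted p of up to 0.219 and a log2 change of 0.84 to 1.65, and Cacybp at 24 h lost it without the same arrays (adjusted p up to 0.066). Hspa4 at 4 h lost it without acetone 4 h replicate 1 or any 1 of the 4 shikonin arrays (adjusted p up to 0.253), and Cacybp at 4 h without either acetone 4 h array, either shikonin 24 h array or shikonin 4 h replicate 2 (adjusted p up to 0.286). The other calls lost at 4 h kept their direction, with log2 changes of -0.87 to -0.63 for Dnaja2 (adjusted p up to 0.203), 0.23 to 0.37 for Hspa9 (0.2), 0.26 to 0.55 for Chordc1 (0.168), 0.25 to 0.34 for Ahsa1 (0.15) and -0.37 to -0.36 for Bag1 (0.0623), each lost without 3 to 6 of the arrays in turn. So did those lost at 24 h, with -0.33 to -0.22 for Dnajb1 (adjusted p up to 0.185), 0.48 to 0.68 for Bag3 (0.148), -0.56 to -0.26 for Stub1 (0.118), 0.29 to 0.31 for Stip1 (0.1155), -0.42 to -0.39 for Hsf1 (0.0787) and -0.75 to -0.54 for Fkbp4 (0.0682), each lost without 2 to 6. A left-out array of the other time leaves the fold as it is and takes only precision from the fit. The arrays of a group lay at least 1.5-fold apart for Hspb8, Cacybp and Tcp1 in shikonin 4 h, with replicate 1 above, for Hspa8 in acetone 4 h, with replicate 1 above, for Hspb8 and Tcp1 in shikonin 24 h, with replicate 2 above, and for Hspa4, Dnaja2, Cacybp, Cct5 and Tcp1 in acetone 24 h, with replicate 2 above. Such gaps were seen in 5.23% of all named genes in shikonin 4 h, 2.51% in acetone 4 h, 3.6% in shikonin 24 h and 5.3% in acetone 24 h.

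Members were also set beside their promoters. Of the 8 measured members with an element of 2 units, 2 passed as higher and 0 as lower at 4 h, against 5 and 4 of the 14 without one. At 24 h it was 2 and 2 of those with an element, against 6 and 4 of those without. Median log2 changes were 0.134 with and -0.079 without an element at 4 h, and 0.238 with and 0.14 without at 24 h. Hspa2, Hspa4, Cct3 and Hsf2, which had 4 of the largest changes, are among those without an element in the window. Hsp90aa1 and Hspa8, with log2 changes of 2.12 and 1.83 at 24 h, had no promoter to search and stand on neither side. Hsp110 is likewise on neither side. Chordc1, with the densest array among the measured members searched, had a log2 change of 0.40 at 4 h. No test was made of this split.

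Chaperones beyond the set also went both ways. Of 70 further genes, chaperones of the endoplasmic reticulum and mitochondria among them, 50 were measured. At 4 h 6 of these passed as higher and 13 as lower (median log2 -0.137), and at 24 h 17 as higher and 12 as lower (median -0.001). That is 12.0% and 26.0% at 4 h, beside 20.4% and 26.5% of all named genes, and 34.0% and 24.0% at 24 h, beside 28.3% and 33.7%. At 4 h the highest were Hspbp1 (log2 1.01 ± 0.19), a nucleotide exchange factor of HSP70, and Hyou1, an HSP110 relative of the endoplasmic reticulum whose change was at least 0.97, since both acetone arrays lay under the floor. The lowest were Hspb3 (-1.40 ± 0.19), a small heat shock protein of muscle, and Hspa12a (-1.32 ± 0.16). At 24 h the highest were Hspa5 (2.16 ± 0.17), the HSP70 of the endoplasmic reticulum, and Dnajc1 (at least 1.46, with both acetone arrays under the floor), and the lowest were Clpb (-1.92 ± 0.16) and Dnaja4 (-1.68 ± 0.13). In acetone 24 h skin 4 of the 50 passed as higher and 15 as lower than in acetone 4 h skin, and Hspa5 and Dnajc1 were among the lower, with a log2 change of -1.54 for Hspa5.

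Genes known to rise in heat or electrophile stress that are no chaperones had larger median changes than the members. Among 15 measured of 18 listed, 12 passed as higher and 0 as lower at 4 h (median log2 1.185), and 14 as higher and 0 as lower at 24 h (median 1.748). By the 2-fold criterion 9 were higher at 4 h and 11 at 24 h, beside 6.6% and 12.4% of all named genes. Hmox1, the heme oxygenase that electrophiles induce, had the largest change at 4 h (log2 3.39 ± 0.09, adjusted p = 2.79e-08 by limma), followed by Gadd45a (2.45 ± 0.20). At 24 h the largest were those of Osgin1 (3.23 ± 0.14) and Gadd45b (3.13 ± 0.13). Zfand2a, a proteasome adaptor that arsenite and heat induce, was higher by 1.69 ± 0.10 at 4 h and 1.77 ± 0.10 at 24 h. The 3 that did not pass at 4 h were Mt1, Mt2 and Rgs2. Mt1 and Mt2 were saturated on both shikonin 4 h arrays, so their changes are lower bounds, and Rgs2 lay near the floor. Mt1, which did not pass at 24 h either, was saturated on both shikonin 24 h arrays too. In acetone 24 h skin 0 of the 15 passed as higher and 7 (46.7%) as lower than in acetone 4 h skin. Of all named genes, 15.8% passed as higher and 14.5% as lower.

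Markers of the cell types of skin differed with both the treatment and the time. Beside the counts below, 20.4% of all named genes passed as higher and 26.5% as lower at 4 h, and 28.3% and 33.7% at 24 h. From acetone 4 h to acetone 24 h skin, 15.8% of all named genes passed as higher and 14.5% as lower. Neutrophil markers were higher in 6 of 7 at 4 h and 7 of 7 at 24 h, with summed intensities of 257070 to 264806 in shikonin 4 h, 82983 to 90740 in acetone 4 h, 249899 to 254081 in shikonin 24 h and 21485 to 21556 in acetone 24 h, where Mmp8 lay under the floor. The shikonin sums are capped, since Retnlg was saturated on all 4 shikonin arrays and S100a8, the marker not called at 4 h, on 1 array of each shikonin group. Acetone 24 h skin was thus lower than acetone 4 h skin in 6 of 7 neutrophil markers (median log2 -2.12), as it was in 11 members. Hair follicle keratins were higher in 7 of 7 at 4 h, with sums of 161876 to 166388 in shikonin skin and 4281 to 4504 in acetone skin, and melanocyte genes in 4 of 4, both alongside the rise of Hspa2 and Dnajb1. At 24 h the sums of the follicle keratins were 960.0 to 1031 in shikonin skin and 4117 to 4184 in acetone skin, with 5 of 7 lower and 1 higher. The higher one was Krt86 (log2 at least 0.50, with both acetone arrays under the floor). Krt71, Krt33a, Krt25, Krt27 and Krt28 lay under the floor in shikonin skin. Epidermal markers were lower in 7 of 8 at both times, and skeletal muscle markers in 11 of 11 at 4 h (sums of 151437 to 155526 in shikonin and 271887 to 277869 in acetone skin). The epidermal marker that did not pass, Krt14, read 60073 or more on every array and was saturated on all 24 h arrays, so its change cannot be read. Krt10 was saturated on all acetone arrays and Lor on 1 acetone 4 h array, which makes these falls lower bounds. At 24 h skeletal muscle markers were lower in 7 of 11 and higher in 1, melanocyte genes lower in 4 of 4 (median log2 -2.09), adipocyte markers lower in 4 of 5 (median -1.84) and smooth muscle markers lower in 3 of 4, while macrophage markers were higher in 4 of 6 and lower in 1 and endothelial markers higher in 3 of 3. The part of these shifts in the changes of the members was not tested.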

How the data were processed

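RNA of abdominal skin was read as Cy5 on 8 one-colour Mouse OneArray chips, 2 per group. The authors deposited 1 linear intensity per probe and array, scanned with GenePix. The sources used here do not give its background correction, its normalization or the filter behind the 16069 blanks among 29922 probes, and the like medians show that arrays had been brought to 1 level. The 13853 probes with values on all 8 arrays were used, of which 11550 have 1 gene symbol and 2303 have none. Of the symbols, 9712 were current, 1814 were updated through RefSeq and 24 were kept.

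Intensities under 203.4, the 5% quantile, were raised to it (log2 7.67), which touched 2 values of the members. Values of 65000 or above were held to be saturated, which no member reached. Group means were fitted to log2 values with limma 3.58.1 in R 4.3.3 (lmFit, eBayes with an intensity trend, 4 residual and 5.02 prior degrees of freedom), and p-values were adjusted by Benjamini-Hochberg over all probes, with a threshold of 0.05. A gene with several probes was read from the brightest. The 2-fold criterion paired arrays by replicate number and has no p-value. In simulated data of 13853 probes, only 100 were changed by 1 and 100 by 2 on the log2 scale, with independent normal noise. There limma at 24 h recovered 62 of the 100 changed by 1 and 96 of the 100 changed by 2, with 7 false calls. In the skin data 28.3% of named genes passed as higher and 33.7% as lower at 24 h, so these rates may not hold there. Deviations of same-numbered arrays correlated with r of -0.212 to 0.213 between groups, so the numbers were not taken as pairs.

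The members and the lists were chosen with earlier results of these data known. Array values are given for members that passed with a mean change of at least 2-fold at that time, with others shown beside them, for the highest and lowest of each family, and from other lists the 2 highest and 2 lowest that passed. Other floors, filters, scalings, fits, probe rules, controls and each array left out were tried. Promoters came from RefSeq (GRCm38.p6). Plots used Python 3.11.15 with matplotlib 3.10.9. The microRNA arrays and PCR of the study were not analysed.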

Additional observations from a re-analysis of the deposited data

Results flagged for a closer look

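The effects of shikonin at 24 h and at 4 h differed in 10 members by limma's test of the difference, with 2 arrays per group and p-values adjusted over all probes. The effect was more positive at 24 h, by log2 1.92 for Hspa8 (adjusted p = 0.000317), 1.80 for Cacybp (0.00408), 1.41 for Hsp90aa1 (0.000933) and 0.49 for Bag1 (0.0173). It was more negative at 24 h, by log2 -2.66 for Hspa2 (adjusted p = 1.27e-05), -0.97 for Dnajb1 (0.00073), -0.83 for Hspa4l (0.0111), -0.59 for Hsp110 (0.0149), -0.50 for Cct4 (0.0106) and -0.34 for Cct2 (0.0289). Hspa8, Cacybp, Hsp90aa1 and Hsp110 were also lower in acetone 24 h than in acetone 4 h skin, Hspa2 was higher there, and the other 5 did not pass between the acetone groups. Whether the differences come from the shikonin or the acetone arrays was not tested. Groups of 2 arrays are too small for a test of single outlying arrays.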

How the results depend on the processing

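Under quantile normalization, median scaling, no floor and a filter on dim probes, all 60 results of the 30 members at 4 h and 24 h, passed or not, stayed as they were. These settings had little to change. The medians were already alike, only 2 member values, on the second probe of Fkbp4, lay under the floor, and the filter kept all 30 members. Their outcome thus says little about how firm the calls are. The number of members called was 14 at 4 h and 19 at 24 h, 10 for the difference of effects and 12 between the acetone groups. Leaving out 1 array gave 7 to 14, 11 to 19, 7 to 15 and 6 to 14. The lowest counts came without acetone 4 h replicate 1 at 4 h (7), without shikonin 24 h replicate 2 at 24 h (11) and without acetone 4 h replicate 2 between the acetone groups (6). The count at 4 h was 9 without acetone 4 h replicate 2, shikonin 4 h replicate 2 or either shikonin 24 h array, that at 24 h was 12 without acetone 24 h replicate 1, and that between the acetone groups was 7 without the same array. The 25% quantile as the floor gave 10 at 4 h, 14 at 24 h (7 higher, against 11 before, and 7 lower), 12 and 9, no intensity trend gave 11, 17, 8 and 12, and averaging the probes of each gene gave 13, 19, 13 and 13. Each time fitted alone gave 11 and 19. With the replicate block the counts were 12, 17, 10 and 12. With a criterion of 3-fold, 1 member met it at 4 h and 3 at 24 h, and with 1.5-fold 9 did at 24 h. With the replicate numbers crossed, 4 members met the 2-fold criterion at each time, without Tcp1 at 24 h.

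When each shikonin group was set against acetone of the opposite time, a choice made after seeing the data, 20 members were called at 4 h (16 higher and 4 lower) and 12 at 24 h (3 higher and 9 lower). The share of all named genes called with these controls was not counted, so whether the members stand apart was not tested. Among members that passed with at least 1 of the controls, the sign then changed at 24 h for Hspa1b (log2 -0.39), Hsp110 (-0.007), Hspb8 (-1.46), Bag3 (-0.46), Cacybp (-0.39), Cct8 (-0.37) and Tcp1 (-0.69), and at 4 h for Hspa8 (1.65), Hspb8 (1.82), Cacybp (0.67) and Tcp1 (1.67). Changes of sign in members that passed with neither control are not listed. The cause was not tested. Only processed values were used, so the background correction could not be varied, and 2 arrays per group limit the precision of every value.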
